A study of Arabidopsis thaliana with 66 samples.

Results

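PLIM2a (AT2G45800), ANX1 (AT3G04690), SETH5 (AT4G00800) and AT59 (AT1G14420) are 4 Arabidopsis thaliana genes grouped here as pollen tube genes. Their members were every probe set that the array annotation pairs with one of these genes alone. PLIM2a, ANX1 and AT59 have 1 probe set each and SETH5 has 2, which makes 5 of 13513 single-gene probe sets on the array, and all 5 passed the filter on dim signals. The names were chosen from the annotation and not from a measured contrast, although earlier results of these data were known when they were chosen.

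A pollen grain that lands on a stigma grows a tube by adding wall and membrane at its tip, and the tube carries 2 sperm cells to an ovule. Much of the RNA for this growth is already stored in the mature grain. PLIM2a is a LIM-domain protein that bundles actin filaments, the tracks that bring vesicles to the tip. ANX1 (ANXUR1) is a receptor-like kinase of the tube membrane that, with its relative ANX2, keeps the tube from bursting before it reaches the ovule. AT59 encodes a pectate lyase, a relative of tomato LAT59 and a member of the enzymes that cut wall pectin. SETH5 carries the name of the seth mutants, in which pollen germination or tube growth is impaired. SETH1 and SETH2 of that set act in the synthesis of GPI anchors, and the biochemical role of SETH5 is not stated here.

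RNA was hybridised to 66 ATH1 arrays (one colour each), 3 for each of 22 groups, all in the Columbia (Col-0) background and, apart from the flowers grown in long days, under continuous light at 23 °C on soil. Mutant flowers taken at the equivalent of stage 12 came from clv3-7 (more carpels and extra organs), lfy-12 (leaf-like flowers), ap1-15 (no sepals, with secondary flowers in place of petals), ap2-6 (no sepals or petals, carpel-like organs), ap3-6 (no petals or stamens), ag-12 (no stamens or carpels) and ufo-1 (filamentous organs in the middle whorls). Wild-type samples were mature pollen, whole flowers of stages 9, 10/11, 12 and 15, and dissected sepals, petals, stamens and carpels of stages 12 and 15. Stage 15 pedicels (flower stalks) and flowers of unstated stage grown in long days at 20 °C completed the set. A signal of 22.61, the 40th percentile of all values, is called the floor below, and a group is below it where all 3 arrays are. Between 11798 and 14670 probe sets per array exceeded the floor, fewest on the pollen arrays, at most 12162 against at least 12458 on the others. The stage 15 petal arrays are B, C and D in the labels and the others A, B and C, with A2, B2 and C2 for flowers of stages 9 and 10/11. The labels do not say whether the 3 arrays of a group came from separate plants, so the p-values measure the spread between these arrays, which may be technical. Differences are in log2(signal + 11.31), and a difference was called where limma gave a Benjamini-Hochberg adjusted p under 0.05 and the change was at least 2-fold.

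PLIM2a, ANX1 and AT59 had their highest signal in mature pollen and their next highest in stamens, whereas SETH5 did not. PLIM2a gave 10880.1, 11915 and 12509 on the 3 pollen arrays, against 2678, 2739 and 2962 in stage 15 stamens and 1473, 1688 and 1493 in stage 12 stamens. AT59 gave 9192, 10034 and 10567 in pollen, against 1671, 1623 and 1677 in stage 15 stamens and 733, 718 and 703 in stage 12 stamens. ANX1 gave 1938, 1889 and 1955 in pollen, against 163, 161 and 157 in stage 15 stamens and 257, 255 and 309.9 in stage 12 stamens. The arrays of these 3 groups did not overlap for any of the 3 genes. The order of the stamen stages was opposite in ANX1, which was brighter at stage 12, to that in PLIM2a and AT59.

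**Figure D1:**
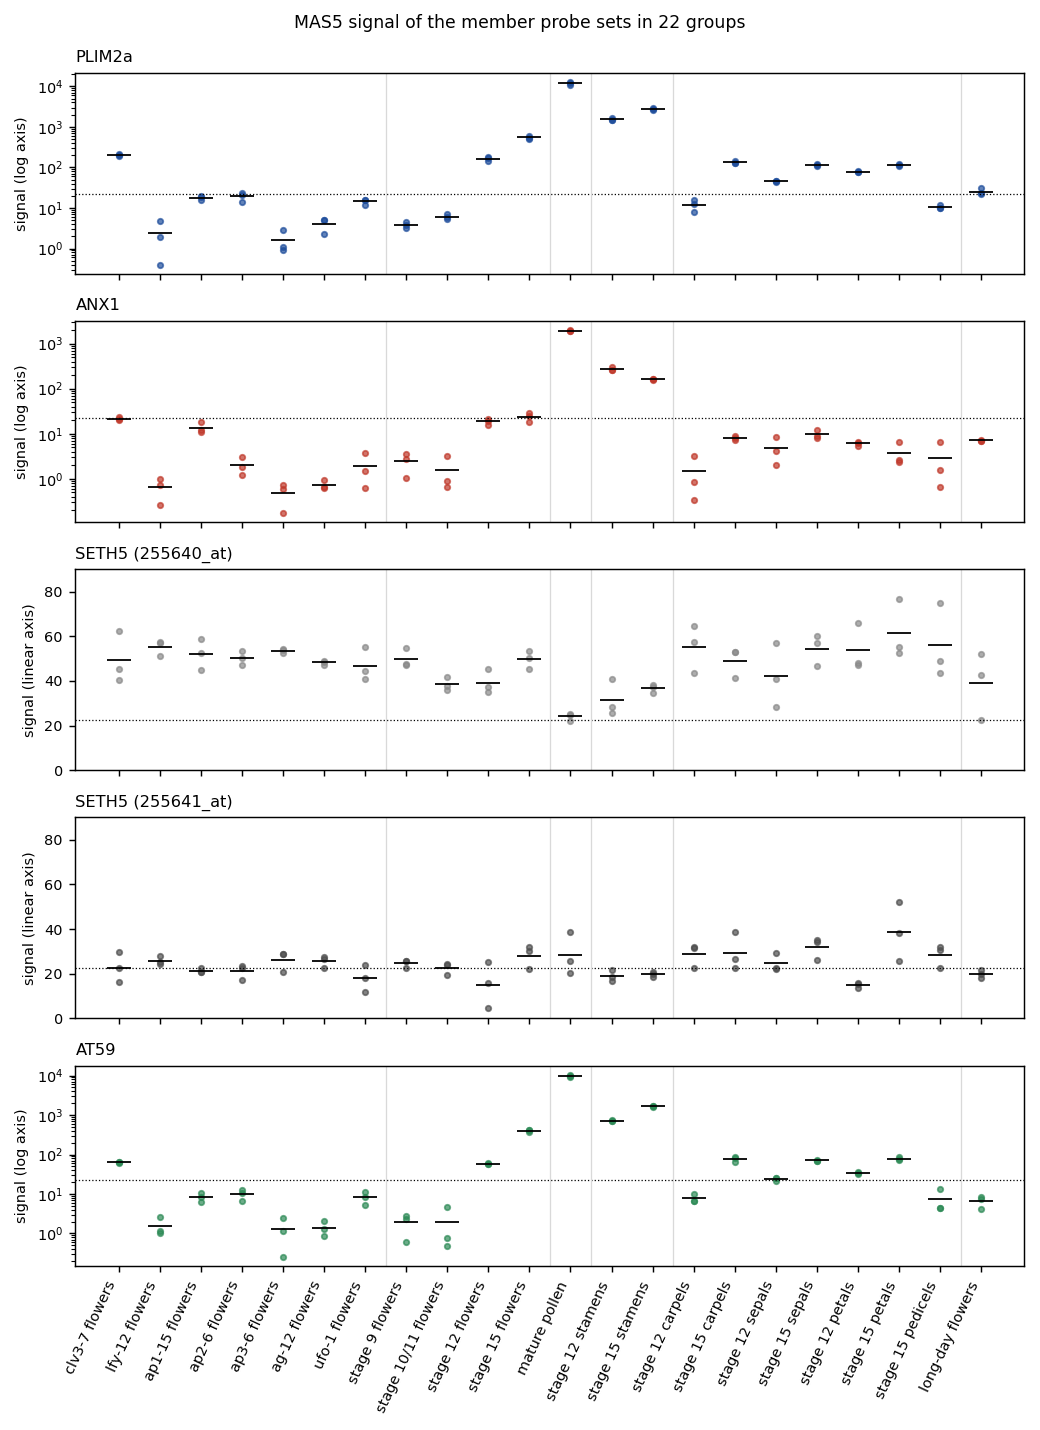
Signal of each member probe set (y axis, log scale for PLIM2a, ANX1 and AT59, linear for SETH5) on every array of the 22 groups (x axis), 1 point per array, with a bar at the group mean and a dotted line at the floor. PLIM2a, ANX1 and AT59 peak in pollen and stamens, with pollen means of 11768, 1927 and 9931, while both SETH5 probe sets stay between 4.59 and 76.8 throughout.

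The rest of the order was much alike in PLIM2a and AT59. After pollen and stamens came stage 15 flowers, at 549.8 ± 35.9 for PLIM2a and 399 ± 31.6 for AT59 (SD, n = 3 each). clv3-7 flowers, stage 12 flowers and the sepals, petals and carpels of stage 15 followed at 114 to 202 for PLIM2a and 58.5 to 78.4 for AT59. Neighbours within that range overlapped in part: for PLIM2a the stage 15 sepals and petals, for AT59 the stage 15 petals, carpels and sepals. Stage 12 petals and sepals came next, at 78.7 ± 4.32 and 45.1 ± 1.95 for PLIM2a and at 33.6 ± 2.05 and 24.1 ± 2.42 for AT59. PLIM2a lay above the floor on all arrays in 11 groups and AT59 in 10. ANX1 did so only in pollen and both stamen groups, and was below the floor in 17 groups, so its order beyond the stamens is not read here.

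Flowers grown in long days held little signal of these genes. PLIM2a gave 23.1, 22.1 and 30.3 there, around the floor, while AT59 gave 7.62, 4.099 and 8.44 and ANX1 7.00, 7.44 and 7.07, all below it. Photoperiod, temperature and the unstated stage differ together in that group, so no test was made.

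Neither SETH5 probe set showed the pollen and stamen pattern of the other 3 genes, and whether they detect the SETH5 transcript was not tested. The brighter, 255640_at, was above the floor in 20 of 22 groups and in part of the arrays of the other 2, yet spanned only from 22.1 to 76.8 over all 66 arrays. Its group means ran from 61.5 ± 13.3 in stage 15 petals down to 24.1 ± 1.72 in mature pollen (SD, n = 3 each), where the 3 arrays gave 24.9, 25.3 and 22.1. All neighbours in that order overlapped except the last, stage 12 stamens over pollen. The dimmer, 255641_at, lay around the floor, with 4 groups above it on all arrays, 13 on some and 5 on none, and gave 20.1, 25.9 and 38.7 in pollen. Neither probe set was called in any of the 40 comparisons made. Under other settings 255641_at alone passed 2-fold, among them in stage 15 minus stage 12 petals at 1.31 without a pseudocount and in pollen minus stage 12 stamens at 1.02 after division by the 75th percentile. For 255640_at the difference of pollen minus stage 15 stamens was -0.44 (95% interval -0.77 to -0.11, limma adjusted p = 0.013), and for 255641_at it was 0.33 (-0.04 to 0.69, adjusted p = 0.091). The place of pollen at the bottom of the order for 255640_at depends on the scaling of the arrays, since its pollen mean was 40.02 after quantile normalization, against 47.1 in stage 15 and 39.4 in stage 12 stamens. After each array was divided by its 75th percentile it was 46.6 in pollen, against 39.1 and 33.6 in these stamens, so the direction between pollen and stamens turned. The mean of 255641_at was then 54.5 in pollen, against 20.9 and 20.4 in these stamens.

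Of 4 other genes named from the seth screen, SETH2 and SETH3 were called higher in pollen and SETH1 and SETH6 gave no pollen signal above the floor. SETH2, an enzyme subunit of GPI anchor synthesis, gave 213, 219 and 233 in pollen against 71.97, 71.2 and 78.1 in stage 15 stamens, and was called higher by 1.45. SETH1 was at most 15.4 on any pollen array and did not pass the filter. SETH3 gave 3289, 2817 and 3026 in pollen against 458, 479 and 442 in stage 15 stamens and was called higher by 2.70. SETH6 was below the floor in both groups. SETH3 and SETH6 were added after the annotation was seen.

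Mature pollen was set against stamens of both stages. Of the 5 member probe sets, 3 were called higher in pollen than in stage 15 stamens, where 18.8% of all tested probe sets were called higher, and 3 against stage 12 stamens, where 14.3% were. The sizes against stage 15 stamens were 2.07 ± 0.11 for PLIM2a (SE; adjusted p = 1.26e-25), 2.57 ± 0.13 for AT59 (3.08e-26) and 3.49 ± 0.13 for ANX1 (7.78e-32), from limma with Benjamini-Hochberg adjustment. Over all tested probe sets the median difference was -0.19. Against stage 12 stamens they were 2.91, 3.77 and 2.77. In stage 15 stamens ANX1 thus reached 8.34% of its own pollen signal, AT59 16.7% and PLIM2a 23.7%. In these bulk samples, fewer cells of a type and less RNA per cell cannot be told apart.

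The sizes, and some of the calls, rest on the authors' scaling of the pollen arrays. After quantile normalization the difference of pollen minus stage 15 stamens was 0.26 for PLIM2a and 0.75 for AT59, both no longer called, and PLIM2a against stage 12 stamens was 0.96, also no longer called. Of all probe sets called between pollen and stage 15 stamens, 38.1% were called higher, against 48.8% with quantile normalization and 61.4% with the 75th percentile, and against stage 12 stamens the shares were 32.2%, 45.8% and 62.5%. Quantile normalization moved the median difference of all probe sets in the pollen comparisons by 0.26 and 0.29, and division by the 75th percentile by 0.58 and 0.59. ANX1 stayed called under both. Pollen held the highest mean of each of the 3 genes under every scaling tried, for PLIM2a 3217 against 2690 in stage 15 stamens after quantile normalization.

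The other genes of pollen tube growth came from 6 lists of 87 genes in all, on actin and LIM proteins, receptor kinases and RALF signalling, pectin and wall enzymes, transporters, ROP and calcium signalling, and late pollen transcription factors. Of these, 17 genes had a single-gene probe set and all of those were tested. In pollen, 17 of 17 were called higher than in stage 15 stamens, with a median difference of 2.89. With quantile normalization 14 were. PLIM2b, the LIM relative of PLIM2a, gave 6328, 6706 and 7426 in pollen against 792, 897 and 855 in stage 15 stamens. ANX2, the partner of ANX1, gave 4970.3, 7713 and 6929.6 against 730.1, 661 and 735, and AtVEX1, a sugar transporter of the vegetative pollen cell, gave 1724, 755 and 814 against 35.9, 34.9 and 33.7. Among the pectin and wall enzymes, AT5G15110 differed by 2.40 and AT3G01270 by 1.69. In the same comparison the photosynthesis genes RCA and LHCB4.1 were lower by 5.41 and 5.27 on the log2 scale in pollen.

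**Figure D2:**
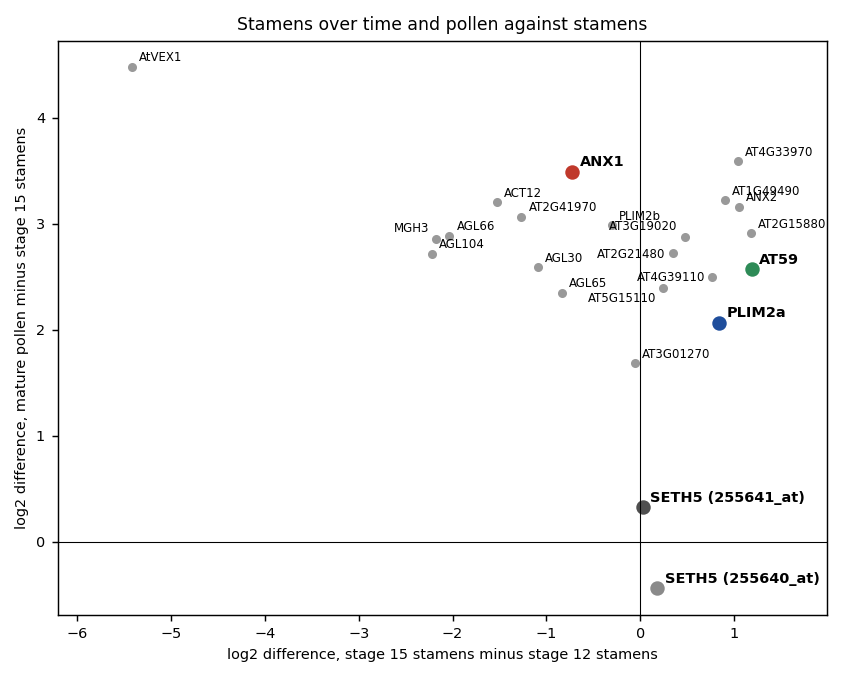
Each tested gene of the pollen lists and each member (coloured), by the log2 difference of stage 15 minus stage 12 stamens (x axis) and of mature pollen minus stage 15 stamens (y axis). ANX1 sits left of 0 at -0.72, AT59 and PLIM2a right of 0 at 1.19 and 0.84, and all list genes lie above 0 on the y axis, while SETH5 lies near 0 on both axes.

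Stamens of stage 15, when the flower is open, were set against those of stage 12, before opening. AT59 was the 1 member called, higher by 1.19 ± 0.13 (SE; limma adjusted p = 2.82e-12), where 12% of all tested probe sets were called higher. PLIM2a differed by 0.84 ± 0.11 (adjusted p = 3.59e-10), which is under the 2-fold limit, with no overlap between the arrays. ANX1 differed by -0.72 ± 0.13 (adjusted p = 2.88e-06), again under 2-fold and without overlap. The lists held genes of both kinds: 3 of 17 were called higher, 6 lower and 8 not at all, with a median of -0.05 beside 0.01 for all probe sets, of which 12% were called higher and 12% lower. ANX2 was called higher by 1.05, and 2 loci of the receptor kinase and RALF list, AT2G15880 and AT4G33970, by 1.18 and 1.04. AtVEX1 was called lower by 5.42, and the late pollen transcription factors AGL104, AGL66 and AGL30 by 2.22, 2.03 and 1.09. ACT12, a pollen actin, and the locus AT2G41970 completed the lower genes at -1.53 and -1.27. MGH3, a histone H3 of the sperm cells, was also called lower, at -2.17. ANX1 and ANX2 thus had differences of unlike sign between the stamen stages. Beside this, the tapetum gene ATA27 gave 6.75, 5.77 and 3.79 in stage 15 stamens against 794, 822 and 819 in stage 12 stamens, a called difference of -5.62, and its part in the members' differences was not tested.

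Within the flower, all 3 genes were far higher in stamens than in the other organs of the same stage. PLIM2a, ANX1 and AT59 were the 3 member probe sets called higher in stage 15 stamens than in carpels, where 15% of all tested probe sets were. Against sepals 12.2% were, against petals 7.1% and against pedicels 15.2%, and the same 3 members were called higher in each. PLIM2a was 19.0-fold higher than in carpels, 22.3-fold than in sepals and 22.4-fold than in petals on this scale, and AT59 18.8-fold, 20.3-fold and 18.6-fold. For ANX1, whose signal in those organs is below the floor, stamens were at least 7.11-fold higher. At stage 12 the same 3 were called against sepals, petals and carpels, where 14.4%, 13.5% and 14.6% of all probe sets were. There PLIM2a was 27.7-fold higher in stamens than in sepals, 17.3-fold than in petals and at least 68.5-fold than in carpels. AT59 was 20.7-fold, 16.3-fold and at least 31.8-fold higher, and ANX1 at least 12.1-fold higher than in each of them.

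Whole flowers carried a part of the stamen signal. Stage 15 flowers held 19.7% of the stage 15 stamen signal of PLIM2a and 24.1% of that of AT59, and stage 12 flowers 10.6% and 8.15% of the stage 12 stamen signal. ANX1 reached 24.4, 28.6 and 18.4 in stage 15 flowers, or 14.8% of stamens. The median share over the 17 list genes was 19.4% at stage 15.

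A low signal of PLIM2a and AT59 in carpels stood above the floor at stage 15 and not at stage 12. PLIM2a gave 146, 132 and 130.1 in stage 15 carpels, against 12.2, 15.3 and 7.87 in stage 12 carpels. AT59 gave 81.8, 65.5 and 86.1 in stage 15 carpels, against 6.85, 6.49 and 10.2 in stage 12 carpels. Both genes were above the floor on every stage 15 array and below it on every stage 12 array. PLIM2a was thus at least 6.01-fold higher in stage 15 carpels (log2 difference 2.68 ± 0.11, SE; limma adjusted p = 4.02e-29) and AT59 at least 3.42-fold (2.22 ± 0.13; 8.71e-22). These 2 were the members called higher, where 3.33% of all tested probe sets were. Of the 17 list genes, 6 were called higher in the same comparison, 0 lower and 11 not at all, with a median of 0.68. AT3G01270 and AT5G15110 were among those called higher, by 2.84 and 1.93. ANX1 gave 8.07, 9.00 and 7.24 in stage 15 carpels and 0.84, 3.21 and 0.339 in stage 12 carpels, all below the floor. Its stage 15 carpel mean was 5.04% of its stage 15 stamen mean of 161. The ANX1 shares in stage 15 sepals, petals and pedicels were 6.06%, 2.36% and 1.82%. All of these means are below the floor, so the shares are not read.

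The carpel signal was close to that in the sepals and petals of the same stage. PLIM2a gave 121, 108 and 114 in stage 15 sepals and 111, 113 and 118 in stage 15 petals. AT59 gave 74.3, 70.6 and 67.4 in sepals and 72.8, 75.3 and 87.2 in petals. The carpels minus sepals difference was 0.23 for PLIM2a (95% interval 0.02 to 0.44, limma adjusted p = 0.046) and 0.11 for AT59 (-0.14 to 0.37, adjusted p = 0.43). Against petals it was 0.23 (0.02 to 0.45, adjusted p = 0.043) and -0.01 (-0.27 to 0.24, adjusted p = 0.93). None of the 5 member probe sets was called in either comparison, where 37.2% and 33.6% of all tested probe sets were called. After quantile normalization the PLIM2a difference was 0.14 from sepals (adjusted p = 0.23) and 0.16 from petals (adjusted p = 0.19).

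**Figure D3:**
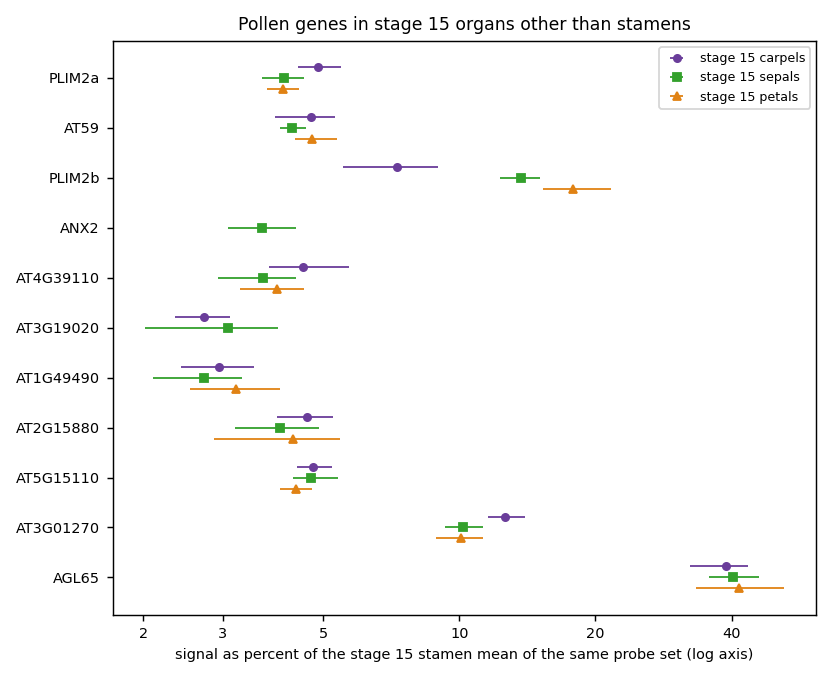
Signal in stage 15 carpels, sepals and petals as a percentage of the stage 15 stamen signal (x axis, log scale), for PLIM2a, AT59 and the pollen list genes above the floor on all arrays of that organ. Points are ratios of group means and bars run from the lowest array over the highest stamen array to the highest over the lowest, and PLIM2a and AT59 lie between 4.08% and 4.87% in all 3 organs.

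Expressed as a share of the stamen signal of the same stage, PLIM2a stood at 4.87% in carpels, 4.096% in sepals and 4.08% in petals. AT59 stood at 4.69%, 4.27% and 4.73%. Among the 17 list genes, 8, 9 and 7 were above the floor on all arrays of these organs, and the median shares over the genes above it were 4.67%, 4.01% and 4.36%. Over all 17, of which 8, 6 and 5 were below the floor on all arrays, the medians were 5.82%, 6.18% and 5.12%. Those above the floor ranged from 2.72% to 38.9% in carpels. The summed signal of the 17 genes was 942 to 979 per array in stage 15 carpels, 895 to 971 in sepals and 944 to 991 in petals, against 12078 to 13477 in stamens. In pedicels it was 174 to 229.99. No list gene was called between carpels and sepals, and 1, PLIM2b, was called lower in carpels than in petals, by 1.17 on the log2 scale, at 63.8, 71.2 and 49.7 in carpels against 138, 146 and 172 in petals. The list medians of carpels minus sepals and carpels minus petals were -0.04 and 0.06, with 8 and 11 genes above 0. After quantile normalization they were -0.36 and -0.35, with 2 and 1 genes above 0 and with 2 called lower against petals.

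Pedicels, the other stage 15 organ, lacked the low signal. PLIM2a gave 11.8, 9.92 and 10.2 there and AT59 4.45, 13.7 and 4.45, all below the floor. Carpels were at least 6.01-fold higher for PLIM2a and at least 3.42-fold higher for AT59, the 2 members called, where 8.42% of all tested probe sets were called higher, and 7 of the 17 list genes were.

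Markers of other cells were read beside the organs. The sperm histone gene MGH3 was below the floor in stage 15 carpels, sepals and petals, as it was in the stage 12 organs other than stamens. It stood at 143, 114 and 97.9 in stage 15 stamens. Its means in stage 15 carpels, sepals and petals were 4.97%, 5.06% and 8.35% of the stamen mean. At that stamen level, a share like those of PLIM2a and AT59 also lies below the floor. All 4 tapetum and pollen wall genes with a probe set (of 13 listed), ATA27, AMS, SHT and AT5G07230, were below the floor in stage 15 carpels, sepals, petals and also stamens. The carpel gene CES gave 503, 587 and 556 in stage 15 carpels and was below the floor in stage 15 stamens, sepals and petals. Of the 4 tested genes of the carpel, ovule and seed coat list, 1 was called higher and 1 lower in stage 15 than in stage 12 carpels, where 3.33% and 1.21% of all probe sets were, with a median of -0.60. BAN, a seed coat gene, gave 273, 269 and 253 in stage 15 carpels against values below the floor in stage 12 carpels, and SPT, a carpel transcription factor, was called lower, at -1.11. The part that pollen or pollen tubes on the dissected organs, or carpel cells themselves, had in the PLIM2a and AT59 signals was not tested.

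Sepals and petals also changed between the stages, by less than carpels. In sepals, PLIM2a and AT59 were called higher at stage 15, by 1.16 and 1.22, where 6.94% of all tested probe sets were called higher. In petals PLIM2a differed by 0.48 and AT59 by 0.997 (adjusted p = 6.32e-10), just under the 2-fold limit, and no member was called, where 25.3% of all probe sets were. Without a pseudocount the AT59 difference in petals was 1.22, which passes 2-fold. In carpels the stage 12 signal was lower than in sepals and petals: PLIM2a was called lower in carpels than in sepals, at -1.30, where 13.2% of all probe sets were called lower. Against petals PLIM2a and AT59 were called lower in carpels, at -1.97 and -1.23, where 6.35% were. Stage 12 carpels are below the floor for both genes, so these sizes depend on the pseudocount. With a pseudocount equal to the floor the PLIM2a call against sepals was lost (-0.98). The AT59 call against petals was lost there too (-0.89) and with the floor at the median of all values (-0.94). Without a pseudocount AT59 was also called lower in carpels than in sepals (-1.64). Of the 17 list genes, 13 were below the floor in stage 12 carpels, 11 in sepals and 7 in petals.

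**Figure D4:**
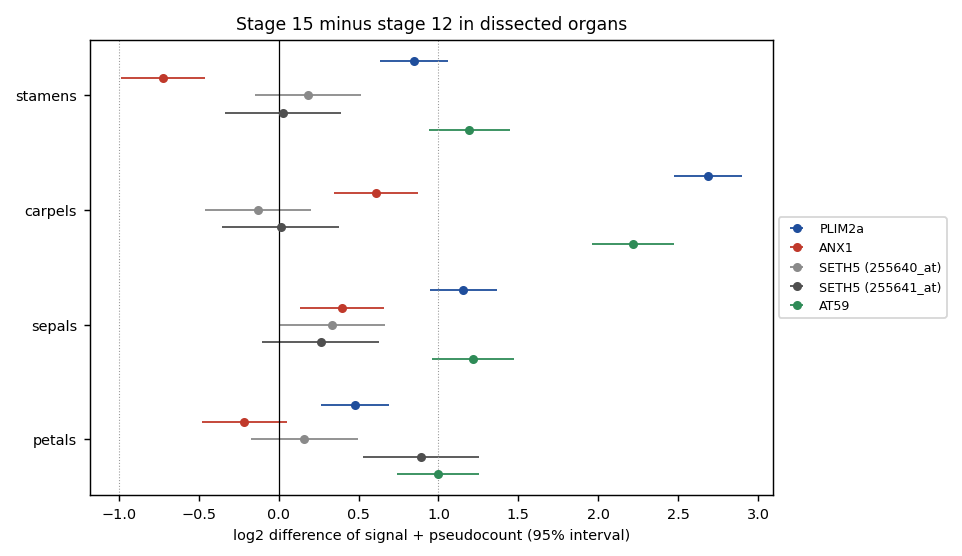
Log2 difference of stage 15 minus stage 12 (x axis) in stamens, carpels, sepals and petals for the 5 member probe sets, with 95% intervals; dotted lines mark a 2-fold change. The largest values are those of PLIM2a and AT59 in carpels, at 2.68 and 2.22, and ANX1 lies below 0 in stamens.

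Whether organs differed in the change between the stages was tested directly. The PLIM2a change was larger in carpels than in sepals by 1.53, than in petals by 2.21 and than in stamens by 1.84. The AT59 change was larger in carpels than in these 3 organs by 1.001, 1.22 and 1.02. For ANX1, the change in stamens was lower than in sepals by 1.12 and than in carpels by 1.33. The stage 12 carpels of PLIM2a and AT59, and all sepals and carpels of ANX1, are below the floor, so these sizes depend on the pseudocount. The ANX1 call for stamens minus sepals was lost with a pseudocount equal to the floor, at -0.93. The AT59 values against sepals and stamens sit at the 2-fold limit and fell under it when single arrays were left out, to 0.93 and -0.96 without stage 15 carpel array C. With a pseudocount equal to the floor, AT59 was at 0.72 for carpels minus sepals and 0.87 for carpels minus petals. For stamens minus carpels it was at -0.54, and none of these AT59 values was then called. Between carpels and sepals and between carpels and petals 2 members each were called, where 12.3% and 14.8% of all probe sets were called higher. Between stamens and carpels 3 were called lower and between stamens and sepals 1, where 12.7% and 12.2% were, and between stamens and petals none was, where 23.5% were called in either direction.

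In whole flowers the genes appeared at stage 12. PLIM2a gave 176, 147 and 169 in stage 12 flowers, against 6.92, 5.82 and 5.49 in stage 10/11 flowers and 3.90, 4.38 and 3.21 in stage 9 flowers. AT59 gave 61.2, 57.9 and 56.5 in stage 12 flowers, against 4.60, 0.468 and 0.781 in stage 10/11 flowers. PLIM2a was at least 7.23-fold and AT59 at least 2.59-fold higher at stage 12. ANX1, at 21.8, 19.1 and 15.7 in stage 12 flowers, was called as well, at 1.23, but is below the floor at both stages and gets no fold, and the call was lost with a pseudocount equal to the floor (0.78) or with the floor at the median of all values (0.84). These 3 members were called higher, where 4.9% of all tested probe sets were. The arrays of stages 9 and 10/11 carry another label series than those of stage 12, so series and stage cannot be told apart at this step. No member was called between stages 10/11 and 9, where 3.15% of all probe sets were.

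From stage 12 to stage 15, PLIM2a rose by 1.68 (3.21-fold) and AT59 by 2.55 (5.86-fold) in whole flowers, where 7.54% of all probe sets were called higher. ANX1 gave 24.4, 28.6 and 18.4 in stage 15 flowers, overlapping stage 12 flowers, with a difference of 0.21 (95% interval -0.05 to 0.48). Among the list genes 6 of 17 were called higher and 4 lower at stage 15, where 4.69% of all probe sets were called lower. At the stage 10/11 to 12 step 13 of 17 were called higher and none lower, with 4 not called. The 4 tapetum genes went the other way there, all called lower at stage 12 with a median of -2.90, where 1.37% of all probe sets were called lower.

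The mutants lack, alter or add floral organs, mostly of more than 1 kind. All 7 are compared with the same 3 arrays of stage 12 flowers, so the comparisons are not independent. PLIM2a and AT59 were called lower in all of them but clv3-7. PLIM2a gave 0.899, 2.93 and 1.12 in ap3-6 flowers, which have no stamens, and 5.17, 4.93 and 2.25 in ag-12 flowers, which have none either, against 176, 147 and 169 in stage 12 flowers. In lfy-12 flowers it gave 1.89, 4.90 and 0.393. In all 3 it was at least 7.23-fold lower. AT59 gave at most 2.57 on the arrays of these 3 mutants, against 61.2, 57.9 and 56.5 in stage 12 flowers, and was at least 2.59-fold lower.

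In flowers of ap1-15, ap2-6 and ufo-1 both genes were also low, with somewhat more signal than in ap3-6. PLIM2a gave 19.6, 15.4 and 18.4 in ap1-15, 14.2, 21.5 and 22.8 in ap2-6, and 16.0, 15.7 and 11.7 in ufo-1. AT59 gave 8.36, 6.33 and 10.4 in ap1-15, 13.0003, 6.82 and 10.7 in ap2-6 and 5.24, 11.4 and 8.28 in ufo-1. The log2 differences of PLIM2a from stage 12 flowers ran from -3.76 in ap3-6 to -2.52 in ap2-6 over the 6 mutants, and those of AT59 from -2.47 to -1.71. Of all tested probe sets, 6.21% were called lower in ap3-6, 6.02% in ag-12 and 7.35% in lfy-12. In ap1-15 the share was 3.51%, in ufo-1 4.24% and in ap2-6 4.97%.

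In clv3-7 flowers, with more carpels and extra organs, PLIM2a gave 212, 200.05 and 195 and AT59 63.9, 66.1 and 62.1, with differences of 0.29 (95% interval 0.08 to 0.50) and 0.11 (-0.15 to 0.37) from stage 12 flowers. No member was called there, where 0.697% of all probe sets were. ANX1 was called lower in lfy-12, ap2-6, ap3-6, ag-12 and ufo-1 flowers, by 1.17 to 1.35 on the log2 scale, and not in ap1-15 flowers (-0.27, adjusted p = 0.086). Since stage 12 flowers themselves are below the floor for ANX1, no fold is given, and none of these 5 calls held with a pseudocount equal to the floor. ANX1 gave 18.3, 12.0 and 11.0 in ap1-15 flowers, overlapping the stage 12 arrays.

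**Figure D5:**
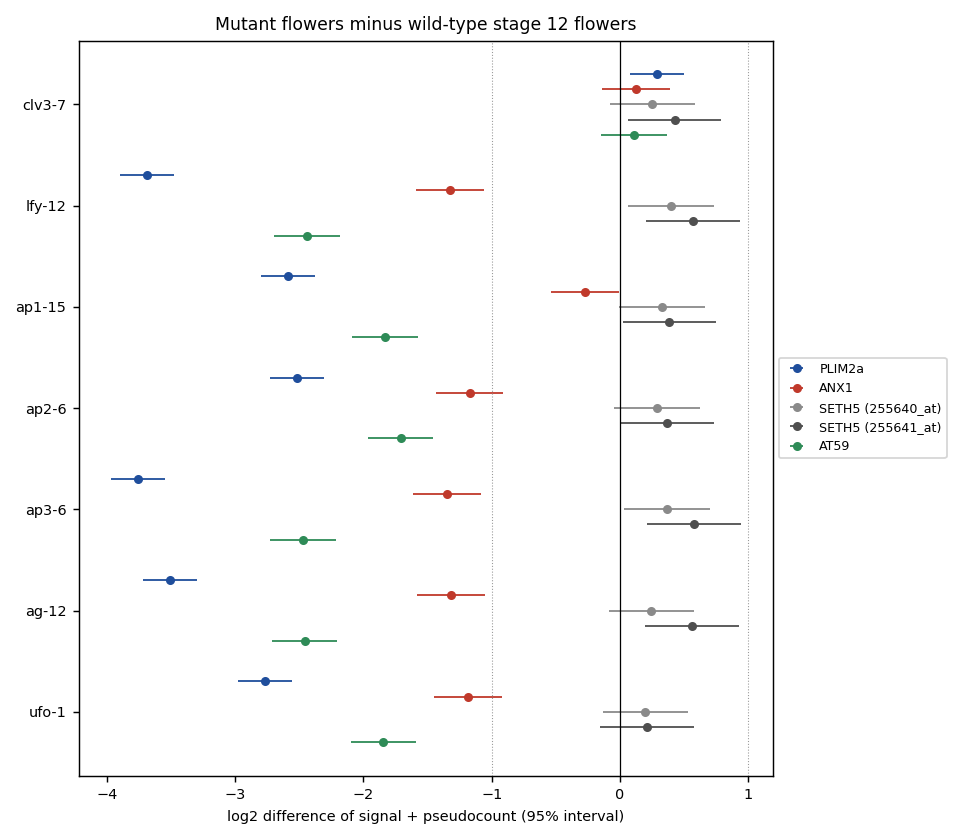
Log2 difference of flowers of each mutant minus stage 12 flowers for PLIM2a, ANX1, AT59 and the 2 SETH5 probe sets, with 95% intervals. PLIM2a and AT59 lie below -1 in every mutant but clv3-7, and SETH5 lies between 0.20 and 0.58 in all of them.

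The list genes behaved in the same direction in these mutants. Of 17, 14 were called lower in lfy-12, ap2-6 and ap3-6, 13 in ag-12 and ufo-1, 11 in ap1-15 and none in clv3-7, and none was called higher in any of the 7. In clv3-7, 17 of 17 were not called, with a median of 0.07. The medians in the other mutants lay between -2.15 in lfy-12 and -1.11 in ap1-15. In ap3-6 the largest differences among the listed genes were those of AT3G01270 at -6.12 and AtVEX1 at -4.67.

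The tapetum genes were not low in all of these mutants. ATA27, a beta-glucosidase of the tapetum (the anther layer that feeds pollen), gave 1959, 2027 and 2065 in ap1-15 flowers and 712, 742 and 742 in ufo-1 flowers, against 889, 949 and 949 in stage 12 flowers. In ap3-6 flowers it gave 0.336, 0.132 and 0.874. Of the 4 tapetum genes, 4 were called higher in ap1-15 and 2 in ap2-6 and clv3-7, while 3 were called lower in ap3-6 and ag-12. In lfy-12 1 was called higher and 1 lower, and in ufo-1 1 was called higher. Of all probe sets, 2.06% were called higher in ap1-15, 1.46% in ap2-6, 0.425% in clv3-7, 2.45% in lfy-12 and 0.844% in ufo-1. The shares called lower were 6.21% in ap3-6, 6.02% in ag-12 and 7.35% in lfy-12. ap1-15 flowers thus held tapetum signal above that of stage 12 flowers beside PLIM2a and AT59 signal below the floor. The part of these tapetum differences in the members' values was not tested.

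A direct test against ap3-6 flowers asked whether any low mutant kept member signal. PLIM2a was called higher in ap1-15 than in ap3-6 flowers by 1.17 and in ap2-6 flowers by 1.24, and ANX1 in ap1-15 flowers by 1.08. In ap1-15 4.64% of all probe sets were called higher and in ap2-6 2.98%. PLIM2a in ufo-1 flowers differed by 0.99, just under 2-fold. No member was called in ufo-1, lfy-12 or ag-12 flowers, where 2.62%, 3.89% and 3.11% of all probe sets were. Nearly all of these signals are below the floor, and the calls in ap1-15 were lost with a pseudocount equal to the floor or after quantile normalization. The PLIM2a call in ap2-6 was also lost, at 0.79 with that pseudocount and 0.86 with the floor at the median of all values.

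Over the 22 group means on the log scale PLIM2a and AT59 correlated at Pearson r = 0.990, ANX1 with AT59 at 0.927 and PLIM2a with ANX1 at 0.913. These values describe 22 groups that include shared organs and scaling, and ANX1 is below the floor in 17 of them. Without pollen the 3 values were 0.988, 0.879 and 0.888 over 21 groups. SETH5 255640_at correlated at -0.66 with PLIM2a, -0.65 with AT59 and -0.81 with ANX1, and the 2 SETH5 probe sets with each other at 0.35. Without pollen these 4 values were -0.47, -0.42, -0.65 and 0.58.

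The genes most alike in pattern were named as the 5 highest in Pearson r among 9809 other single-gene probe sets. For PLIM2a they were LCR72, a small cysteine-rich protein, RALFL25, a RALF-like signal peptide, and the loci AT3G05610, AT3G61160 and AT5G48140, at r from 0.998 to 0.997. LCR72 averaged 10165 in pollen, 2377 in stage 15 stamens and 115 in stage 15 carpels, close in shape to PLIM2a. For AT59 they were GH9A4, a glycosyl hydrolase, and the loci AT1G23350, AT1G54070, AT4G27580 and AT3G54800, at 0.999 to 0.997. GH9A4 averaged 11792 in pollen, 2027 in stage 15 stamens and 97.5 in stage 15 carpels. For ANX1 they were PUB15, a U-box protein, and the loci AT3G11740, AT2G38500, AT1G75160 and AT3G29060, at 0.994 to 0.992. All 5 averaged more in stage 12 than in stage 15 stamens, an order that choosing them by likeness to ANX1 favours. PUB15 averaged 1794 in pollen, 174 in stage 15 stamens and 327 in stage 12 stamens.

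Many genes share these patterns. Above r = 0.95 there were 87 probe sets for PLIM2a, 111 for AT59 and 245 for ANX1, but 0 for either SETH5 probe set. ANX1 is below the floor in 17 of the 22 groups, so its r rests largely on pollen and stamens. The SETH5 group means span only 2.55-fold and 2.57-fold, so these counts are not read against each other. The best match of SETH5 255640_at was AT1G63830 at 0.905 and that of 255641_at was AT2G15830 at 0.744. The choice of the top 5 depended on the measure: with Spearman correlation 1 of the 5 remained for PLIM2a and 0 for ANX1 and AT59, and without pollen 4, 3 and 4 remained.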

How the data were processed

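Signal intensity on a linear scale was deposited by the authors for 66 arrays, made with MAS5 per the submitters' processing notes, which give no version. The trimmed mean of each array, leaving out 2% at each end, lay between 100.007 and 100.022, so the deposited values are scaled to a common level. Signals ran from 0.00753 to 20033, no 2 arrays were identical, and the 3 arrays per group limit the precision. The files name no genome build, so no coordinates or sequences are given, and the names come from the platform annotation and RefSeq's gene table.

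Of 22810 probe sets, 64 controls were left out. The annotation names a single gene for 13513 of the rest, more than 1 for 503 and none for 8730. A probe set was tested if all 3 arrays of at least 1 group lay above the floor, the 40th percentile (22.61). This removed 5100 and left 17646, of which 9810 pair with 1 gene. A model with a mean for each of the 22 groups was fitted to log2(signal + 11.31) in limma 3.58.1 (R 4.3.3), and comparisons were moderated by eBayes, trend on; 44 degrees of freedom remained, with a prior of 10.6. The pseudocount is 0.5 of the floor. Fold changes are on this scale, which understates changes of low signals. Where a group is below the floor, the other group's geometric mean over the floor is given as "at least". Probe sets of different genes are not compared in level. The fit was tested on simulated data.

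Named are the members, the 5 genes most alike to each, and up to 3 called genes per list in 4 comparisons, each by its brightest probe set, plus list genes named beside a count. The members and lists were chosen with earlier results of these data known. Alternatives were other pseudocounts, floor and filter, 2 scalings, the groups compared alone, robust eBayes, a replicate block and leaving out each array.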

Additional observations from a re-analysis of the deposited data

Results flagged for a closer look

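The change from stage 12 to stage 15 was called different between organs for 3 of the 4 genes, by a test of the difference in limma. Of all tested probe sets, 12.7% were called lower for stamens minus carpels and 12.2% for stamens minus sepals. For carpels minus sepals and carpels minus petals, 12.3% and 14.8% were called higher. For stamens minus petals no member was called, where 23.5% were called in either direction. For PLIM2a the change in stamens minus that in carpels was -1.84, the change in carpels minus that in sepals 1.53, and the change in carpels minus that in petals 2.21. AT59 gave -1.02, 1.001 and 1.22 in the same 3 differences. For ANX1 the change in stamens minus that in sepals was -1.12 and minus that in carpels -1.33. Stage 12 carpels are below the floor for PLIM2a and AT59, and sepals and carpels of both stages for ANX1. The ANX1 call for stamens minus sepals was lost without a pseudocount (limma adjusted p = 0.065). It was also lost with a pseudocount equal to the floor (-0.93). In that last setting the 3 AT59 calls were lost too, at -0.54, 0.72 and 0.87. Without a pseudocount the AT59 call for carpels minus sepals was lost as well (1.77, limma adjusted p = 0.053). That call was also lost after quantile normalization (0.86) and after division by the 75th percentile (0.996). Quantile normalization removed the AT59 call for stamens minus carpels too (-0.85).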

How the results depend on the processing

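Of 630 counts of called members under an alternative, 584 stayed within 1.5 times the reported count and 46 did not. Of 3110 values of single members, 2948 kept their direction and side of the threshold, 53 lost the call, 36 gained one and 0 called values changed sign. A further 73 values that were never called changed sign, 51 of them of SETH5. With no pseudocount the counts were 3 in ap2-6 minus ap3-6, 1 in ag-12 minus ap3-6, 3 in ufo-1 minus ap3-6, 3 in stage 12 carpels minus sepals, 2 in petals between stages, and in the differences of change 0 for stamens minus sepals, 1 for stamens minus petals, 1 for carpels minus sepals and 4 for carpels minus petals. With a pseudocount equal to the floor they were 0 in ap1-15 and ap2-6 minus ap3-6 and in stage 12 carpels minus sepals, 1 in stage 12 carpels minus petals, and 0, 1 and 1 in the changes of stamens minus sepals, carpels minus sepals and carpels minus petals. With the floor at the median they were 0 in ap1-15 and ap2-6 minus ap3-6, 1 in stage 12 carpels minus petals, and again 0, 1 and 1 in those changes, with 255641_at not tested. Quantile normalization gave 0 in ap1-15 minus ap3-6, 2 in stage 12 carpels minus sepals, 1 in petals between stages, 1 in pollen minus stage 15 stamens and 1 in the change in carpels minus sepals. Division by the 75th percentile gave 1 in petals between stages and 1 in the change in carpels minus sepals. Leaving out single arrays gave 1 to 2 in ap1-15 minus ap3-6, 0 to 1 in ufo-1 minus ap3-6, 0 to 2 in petals between stages, 0 to 1 in the changes of stamens minus sepals and stamens minus petals, and 1 to 2 in that of carpels minus sepals. The arrays behind these were ap1-15 A, then ap3-6 B or ufo-1 C, stage 12 sepals C, stage 15 petals C, and for carpels minus sepals any of A and B at stage 12, B and C of stage 15 sepals and A and C of stage 15 carpels. The cause was not tested. For AT59 in petals between stages the value was 1.02 without stage 12 petals array B, 1.01 without C, 1.04 without stage 15 petals array B and 1.02 without C, all past 2-fold. No pairing of the arrays by replicate letter was detected: over 35 comparisons the same-letter deviations correlated between -0.14 and 0.15, and in 0 of them was every pair over 0.1. Such values cannot show whether same-letter samples were collected together. The replicate block changed no call of a member: under it PLIM2a in carpels minus petals of stage 15 was 0.26 (adjusted p = 0.053). Signals near the floor, those of ANX1 outside pollen and stamens and of 255641_at, limit what can be read.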
